A study of Homo sapiens with 31 samples.

Results

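The nuclear genes of respiratory complexes III, IV and V were followed across 8 treatment groups of the H460 cell line, which was established from a human lung tumour of the non-small cell type. Members were the rows of the expression table whose symbol begins with UQCR (complex III), with ATP5 (complex V) or with COX followed by a digit from 4 to 8 (complex IV), together with CYC1, CYCS and the COX assembly genes numbered from 10 to 20. This rule found 54 rows among 74834, and 46 of them had a mean of at least 10 normalized reads over the 31 libraries and were tested among 16259 tested rows. The tested members were 10 complex III genes, cytochrome c, 10 complex IV subunits, COX7A2L, 6 complex IV assembly genes, 16 complex V genes, and ATP5S with ATP5SL, which carry the ATP5 prefix but are not core subunits.

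Complex III passes electrons from ubiquinol to cytochrome c, complex IV passes them from cytochrome c to oxygen, and complex V uses the resulting proton gradient to make ATP. Complexes III, IV and V are mosaics: a few subunits come from the mitochondrial genome and the rest, with all assembly factors, from the nucleus. Cytochrome c has a separate role when it leaves mitochondria, where it helps to build the apoptosome that activates caspases.

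Cells were treated for 6 h with 1 µM B87 (BAY87-2243, an inhibitor of respiratory complex I), with 5 mM DMKG (dimethyl α-ketoglutarate, a membrane-permeable ester of a citric acid cycle intermediate), with both, with 30 µM Nutlin-3 or 50 µM Rita, compounds that release p53 from MDM2, or with B87 and DMKG plus Nutlin-3 or Rita; Control cells were untreated. Each group had 4 libraries and the Nutlin-3 group had 3. Each library came from 2 wells of this single line, so the tests measure the spread between culture replicates. The series asks whether MDM2 inhibition undoes the expression changes that the DMKG and B87 pair brings about.

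Library depth ran from 33441414 to 82493612 whole reads, with a median of 63089433. The tested members were abundant, with a median of 11612 normalized reads against 528 over all tested rows, and their means ran from 25.4 to 124050. The epithelial markers KRT8, KRT18 and KRT19 were abundant and CDH1 was low, at a mean of 2.77. KRT7 stood at a mean of 603 and EPCAM at 50.8. The summed epithelial level ran from 246180 to 280522 in Control, from 205755 to 314057 in the B87, DMKG, B87+DMKG, Nutlin-3 and Rita groups, from 347571 to 417485 with B87+DMKG+Nutlin-3 and from 346191 to 394273 with B87+DMKG+Rita, so it was higher in both triple treatments than in all other libraries. Its part in the members' differences was not tested. Summed leukocyte markers ran from 68.2 to 289.2, fibroblast markers from 1274 to 1918 and endothelial markers from 0 to 66.0. Means of single leukocyte markers ran from 0.06 (CD3E) to 175 (CD14). Those of fibroblast markers ran from 1.34 (COL1A2) to 683 (COL1A1), and those of endothelial markers from 0.27 (CDH5) to 11.2 (KDR). Libraries within the groups were not uniform: transcripts of the mitochondrial genome took 5.39%, 7.51%, 4.21% and 2.24% of the values in the 4 B87+DMKG libraries and 2.42%, 4.33% and 5.39% in the 3 Nutlin-3 libraries. The fourth Rita library stood at 4.76% against 2.69% to 2.93% in the other Rita libraries, and Control ran from 1.49% to 2.15%.

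The 8 members below the mean of 10 were alternative isoforms and copies. COX7A1 and COX7B2 had 0 reads in all 31 libraries, and COX4I2, the alternative form of COX4I1, had 2 reads in 1 library. COX6A2, COX8C, ATP5L2, UQCRBP1 and the row shared by COX6B2 and FAM71E2 had at most 14 reads in any library. H460 cells thus showed COX4I1, COX6A1, COX6B1, COX7A2, COX7B and COX8A as the measured isoforms. Some tested rows cannot be assigned to 1 gene: ATP5O, ATP5E, ATP5J2 and ATP5SL share their rows with overlapping neighbours, UQCRHL is a retrocopy of UQCRH, and ATP5EP2 is a pseudogene of ATP5E, so reads may be split between the copies.

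Per kilobase of transcript, the Control levels spanned the F1 head and the assembly genes. ATP5B, the catalytic β subunit of complex V, was the highest at 63916 normalized reads per kilobase, followed by ATP5G3, a gene for the membrane c ring, at 37836, and COX6A1 at 36377. Among complex III genes UQCRH led at 24982 and UQCRC1 stood at 6156. The assembly genes were lower than these named subunits: COX20 was at 3528, COX15, the heme A synthase, at 923, COX10, which makes the heme precursor, at 733, and COX18, an insertase for the second mitochondrially encoded subunit, at 58.0. Subunits and assembly genes were not fully separated, as UQCRFS1 of complex III stood at 2390, below COX20. Neighbours in this order were not tested against each other.

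Promoter sequence is shown for 5 members whose transcripts moved differently while their promoters hold the same short word. RefSeq promoters (GRCh38.p14, 250 bases before to 50 after the start) matched 35 of the 46 tested members. The ETS core CCGGAAG, searched on both strands (CTTCCGG is the same word on the other strand), occurred in 14 of these 35 promoters (40.0%) and in 10.67% of 27305 promoters in all. In 12 of the 14 it began within 60 bases before the start or after it. The YY1 core AAGATGGC was found in 5 member promoters (14.3%, against 3.03% of all) and the hypoxia core ACGTGC in 3 (8.6%, against 6.87%). The NRF1 core palindrome and the cyclic AMP element TGACGTCA were each found in 2 (5.7%, against 1.36% and 1.98%). The 27305 promoters were not limited to tested rows or matched to the members' high levels. The shares therefore cannot be read as particular to these complexes. Each motif was counted on its own. The ETS and YY1 cores can share the letters AAG, and the promoters of COX10 and ATP5PF held both cores. A match describes the letters only, and no match says only that they are not in this window. The 100 bases before the start follow, 5′ to 3′ on the gene's strand, with the ETS core in capitals (another copy in COX5B spans the start and is left in lower case); COX8A lies at chr11:63974520-63974619 on the plus strand, COX5B at chr2:97645962-97646061 on the plus strand, COX6A1 at chr12:120438013-120438112 on the plus strand, COX6B1 at chr19:35648223-35648322 on the plus strand and ATP5PF, the current symbol of ATP5J, at chr21:25735055-25735154 on the minus strand.
COX8A: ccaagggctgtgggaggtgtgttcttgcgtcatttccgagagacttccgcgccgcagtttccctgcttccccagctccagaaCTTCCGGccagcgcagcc
COX5B: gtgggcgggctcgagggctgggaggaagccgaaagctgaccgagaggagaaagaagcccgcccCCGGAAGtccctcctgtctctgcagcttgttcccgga
COX6A1: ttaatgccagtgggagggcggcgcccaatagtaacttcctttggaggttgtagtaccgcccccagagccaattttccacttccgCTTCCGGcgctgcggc
COX6B1: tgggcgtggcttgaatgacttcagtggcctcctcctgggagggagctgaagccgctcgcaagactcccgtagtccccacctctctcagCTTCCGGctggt
ATP5PF: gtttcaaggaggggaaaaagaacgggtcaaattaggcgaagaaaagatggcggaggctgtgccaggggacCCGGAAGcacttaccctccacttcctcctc

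With B87+DMKG the members split, and most of those that passed the test fell. Of 46 members, 21 fell and 8 rose (limma, adjusted p under 0.05, on log2 of the normalized value plus 1), while 61.0% of all tested rows were called (30.2% up and 30.8% down); the share of members called, 63.0%, was near that background. The median log2 fold change was -0.21 over the members and 0.01 over all tested rows. The members' summed share of all values was 0.95% ± 0.035 (SD, n = 4) against 1.08% ± 0.034 in Control (n = 4). The grid of fold changes shows the split within each complex.

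**Figure D1:**
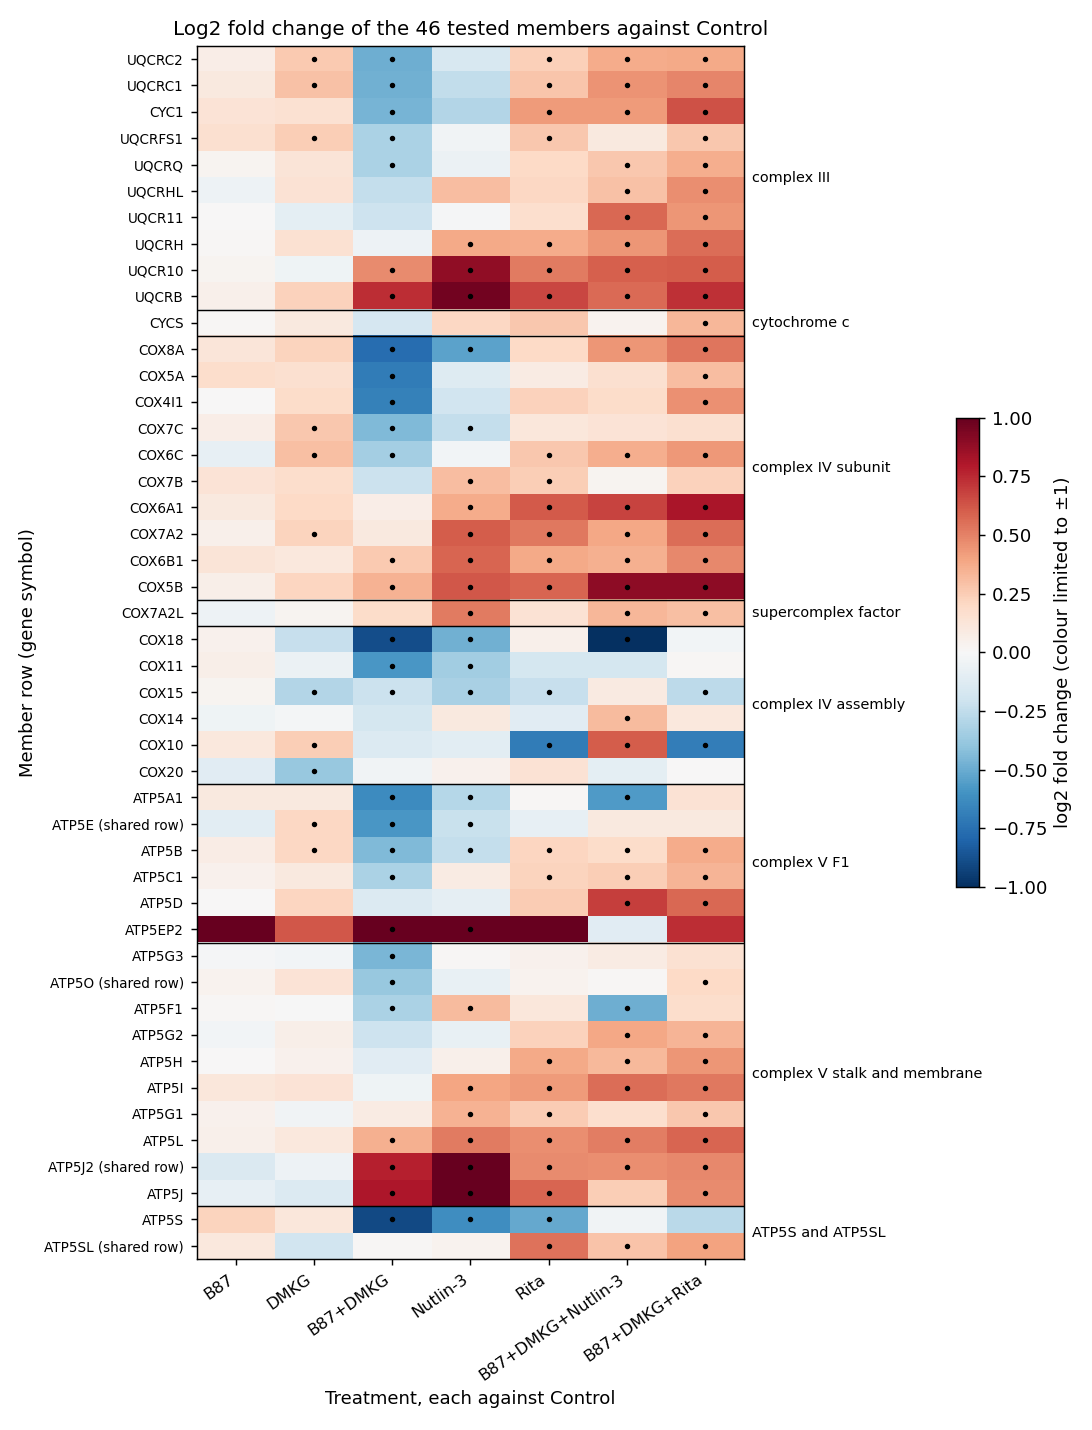
Log2 fold change of the 46 tested members (rows, ordered by role) in each treatment against Control (columns); colour gives the log2 fold change, limited to ±1, and a black dot marks a member that passed the limma test. No member carried a dot with B87 alone, 29 did with B87+DMKG and 34 with B87+DMKG+Rita.

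In complex III 5 genes fell and 2 rose of 10 with B87+DMKG. The catalytic and core subunits were among the falls, and both rises were small subunits. Small subunits did not all rise: UQCRQ stood at 7019, 7594, 9028 and 8901 in B87+DMKG against 9050 to 11651 in Control. UQCRC1, a core protein of the complex (hg19 chr3:48636432-48647470), stood at 11609, 13177, 12249 and 11845 normalized reads in Control and at 7337, 7176, 9864 and 11195 in B87+DMKG. All 4 treated libraries lay below all Control libraries, and the fall was -0.48 ± 0.11 (log2, SE; limma adjusted p = 0.000536). UQCRC2, the partner core protein, fell by 0.49 on the log2 scale, CYC1, the cytochrome c1 heme protein, by 0.47, and UQCRFS1, the Rieske iron-sulfur protein, by 0.32. The fall of UQCRC1 was -0.22, and that of CYC1 -0.23, without B87+DMKG libraries 1 and 2, and neither then passed the test.

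UQCRB, a small subunit that binds ubiquinone, went the other way: Control stood at 11295, 11348, 10662 and 10333 and B87+DMKG at 21057, 19552, 17011 and 15678. These groups did not overlap, and the rise was 0.74 ± 0.12 (log2, SE; limma adjusted p = 2.28e-06). UQCR10, another small subunit, rose by 0.47 on the log2 scale. CYCS, cytochrome c itself, was at 21014, 20385, 22945 and 22435 in Control and at 22528, 24151, 17453 and 14469 in B87+DMKG; the groups overlapped and the difference of -0.17 did not pass the test.

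Complex IV subunits divided in the same way with B87+DMKG, 5 down and 2 up of 10. COX8A, a small membrane subunit (hg19 chr11:63742079-63744014), stood at 9567, 11489, 9819 and 10020 in Control and at 4828, 5578, 6544 and 7479 in B87+DMKG. Every treated library was below every Control library, and the change was -0.76 ± 0.14 (log2, SE; limma adjusted p = 2.65e-05). COX5A (hg19 chr15:75212619-75230495), a subunit on the matrix side, stood at 8314, 10139, 10188 and 9907 in Control and at 5644, 5397, 6664 and 5963 in B87+DMKG.

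COX5A fell by 0.70 on the log2 scale and COX4I1, its regulatory partner, by 0.68, while COX7C fell by 0.44 and COX6C by 0.34. COX5B, a zinc-binding matrix subunit, rose by 0.35 ± 0.12 (log2, SE; limma adjusted p = 0.0162). Its B87+DMKG libraries stood at 14137, 15030, 16560 and 24190 against 12189 to 14945 in Control, so the groups overlapped and the fourth library was the highest. Without B87+DMKG replicate 4 the COX5B difference was 0.18 and did not pass, and without Control replicate 1 it was 0.31 and did not pass, while without B87+DMKG libraries 1 and 2 it was 0.58 and passed. The COX5B call was lost in 3 of 20 alternatives. COX6B1, which faces the intermembrane space, rose by 0.26, a call lost without B87+DMKG replicate 2 (0.20), without Control replicate 3 (0.24) or 4 (0.21), and without B87+DMKG libraries 1 and 2 (0.26).

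The assembly genes of complex IV fell or did not pass with B87+DMKG, 3 down and none up of 6. COX18 stood at 215, 226, 251 and 229 in Control and at 96.2, 100.0, 181 and 134 in B87+DMKG, without overlap, a change of -0.89 ± 0.16 (log2, SE; limma adjusted p = 1.62e-05); without B87+DMKG libraries 1 and 2 it was -0.56 and still passed. COX11, which delivers copper to the enzyme, fell by 0.58 on the log2 scale. COX15 fell by 0.21, a call lost in 4 of 20 alternatives, among them without B87+DMKG replicate 2 (-0.15). COX10, at -0.14, did not pass.

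Complex V divided too with B87+DMKG, 7 down and 4 up of 16. ATP5A1, the α subunit of the F1 head (hg19 chr18:43664110-43684199), stood at 28789, 32074, 31060 and 29644 in Control and at 18984, 18267, 20994 and 20608 in B87+DMKG. The groups lay far apart, with a change of -0.63 ± 0.08 (log2, SE; limma adjusted p = 3.7e-08). ATP5B stood at 111626, 123544, 117845 and 117153 in Control and at 80430, 80198, 97307 and 88538 in B87+DMKG, and fell by 0.44 on the log2 scale. ATP5C1, the γ subunit of the rotor, fell by 0.31, and ATP5G3, for the c ring, by 0.46.

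ATP5J, a peripheral stalk subunit (hg19 chr21:27096791-27107984), stood at 11205, 11577, 11086 and 10062 in Control and at 23113, 24816, 17322 and 13658 in B87+DMKG. All treated libraries were higher, and the rise was 0.81 ± 0.17 (log2, SE; limma adjusted p = 0.000105). Without B87+DMKG libraries 1 and 2 the rise of ATP5J was 0.49 and still passed (limma adjusted p = 0.0227). The row shared by ATP5J2, a membrane subunit, and PTCD1 rose by 0.78, and ATP5L, also in the membrane part, by 0.36. The pseudogene ATP5EP2 rose by 1.82 at levels of 20.2 to 62.7 against 8.5 to 10.7 in Control, and lost the call without B87+DMKG libraries 1 and 2 (1.51) and with quantile normalization (1.27). ATP5S, at 225, 274, 249 and 207 in Control and 134, 112, 124 and 137 in B87+DMKG, fell by 0.90.

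**Figure D2:**
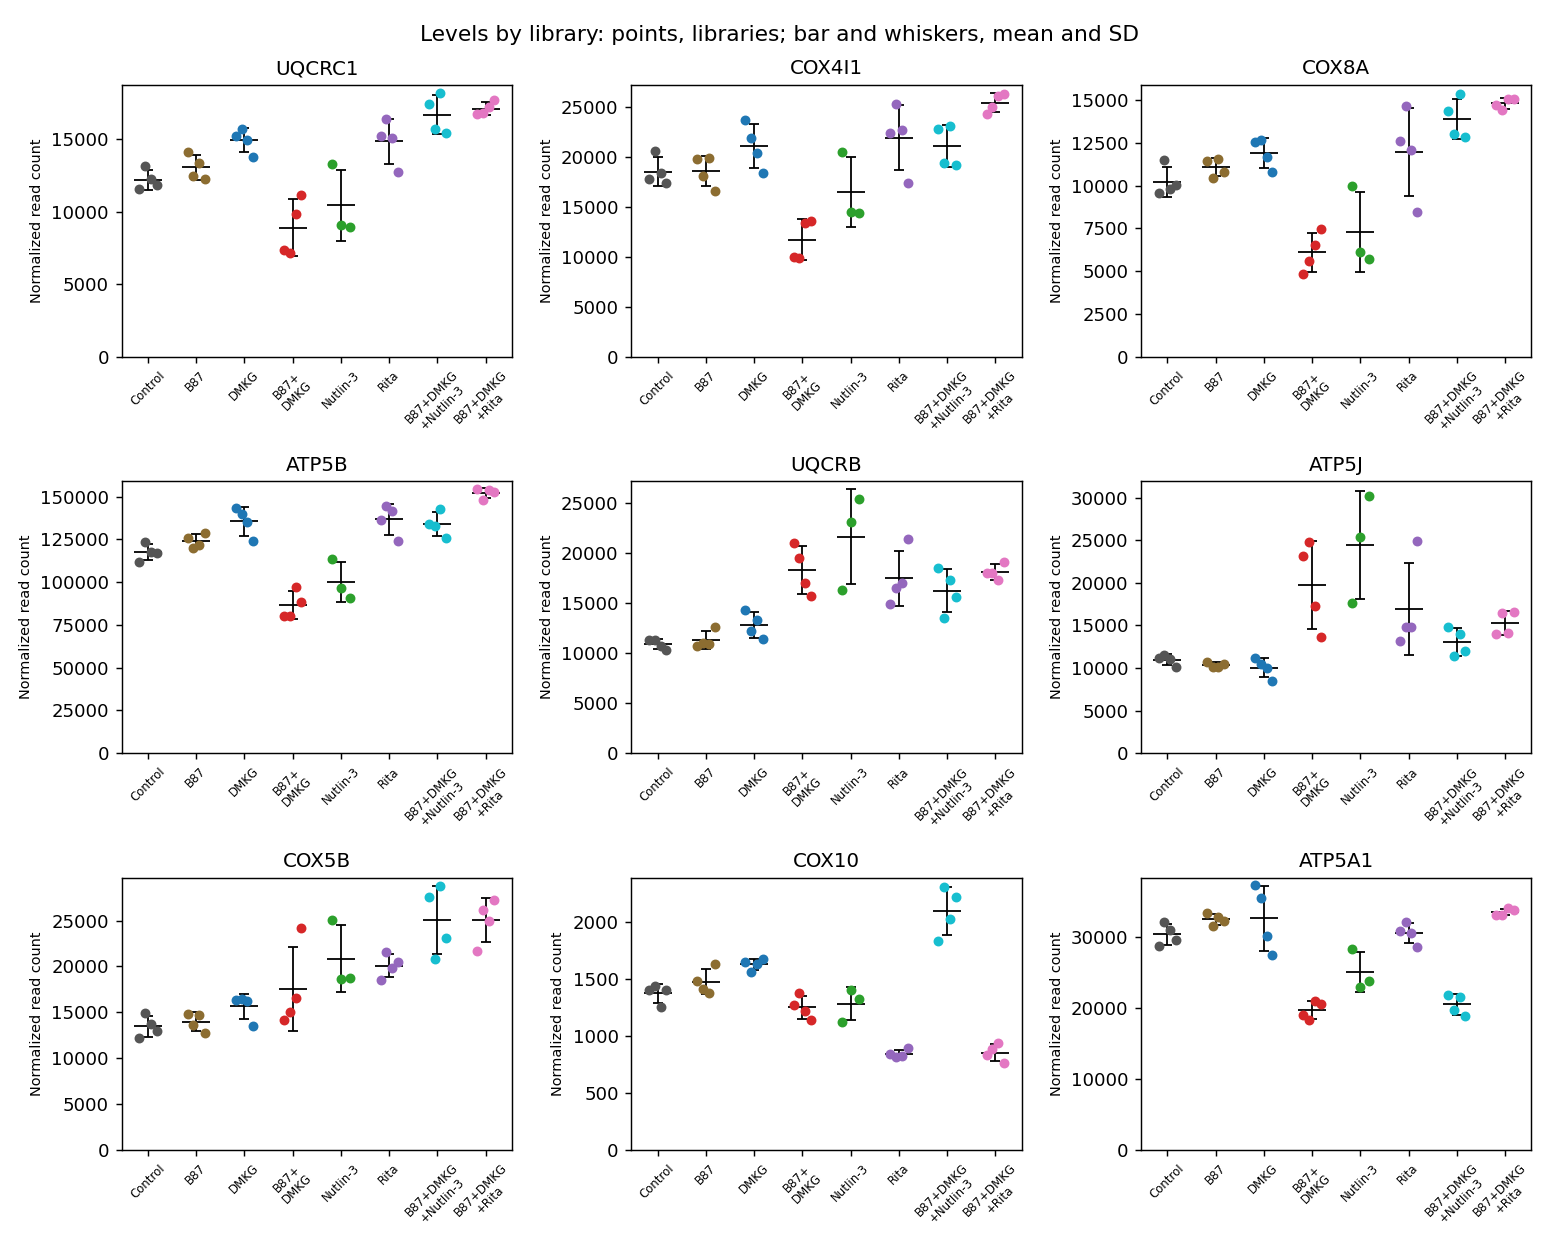
Normalized read counts of 9 members (panels, vertical axis from 0) in each library (points) of the 8 groups, with group mean and SD as bar and whiskers; n = 4, and 3 for Nutlin-3. UQCRC1, COX4I1, COX8A and ATP5B were lowest in B87+DMKG by group mean, UQCRB and ATP5J were highest in Nutlin-3, and COX10 was low with Rita and with B87+DMKG+Rita and highest in B87+DMKG+Nutlin-3.

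Levels of some members ran beside the mitochondrial genome share of the same libraries, and those of others, such as ATP5C1 and COX7B, did so little over all 31 libraries (Pearson's r = -0.03 and 0.08, a description, as libraries share groups). For ATP5J and UQCRB that r was 0.83 and 0.85. Between deviations from the group means, r was 0.78 for ATP5J, 0.69 for UQCRB, 0.61 for COX7B and 0.29 for ATP5C1. For UQCRC1 it was -0.85 between these deviations and -0.41 over all libraries. The 2 B87+DMKG libraries at 5.39% and 7.51% had the highest ATP5J (23113 and 24816) and the lowest UQCRC1 (7337 and 7176), and the library at 2.24% had the lowest ATP5J (13658) and the highest UQCRC1 (11195). In Nutlin-3, ATP5J stood at 17607, 25449 and 30242 and COX8A at 9984, 6128 and 5718 in the libraries at 2.42%, 4.33% and 5.39%. The fourth Rita library, at 4.76%, had ATP5J at 24916 against 13206 to 14805 in the other Rita libraries, and COX8A at 8451 against 12100 to 14661. The part of this share in the members' differences was not tested. In RNA from whole cultures, fewer cells of a kind and less RNA per cell cannot be told apart.

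**Figure D3:**
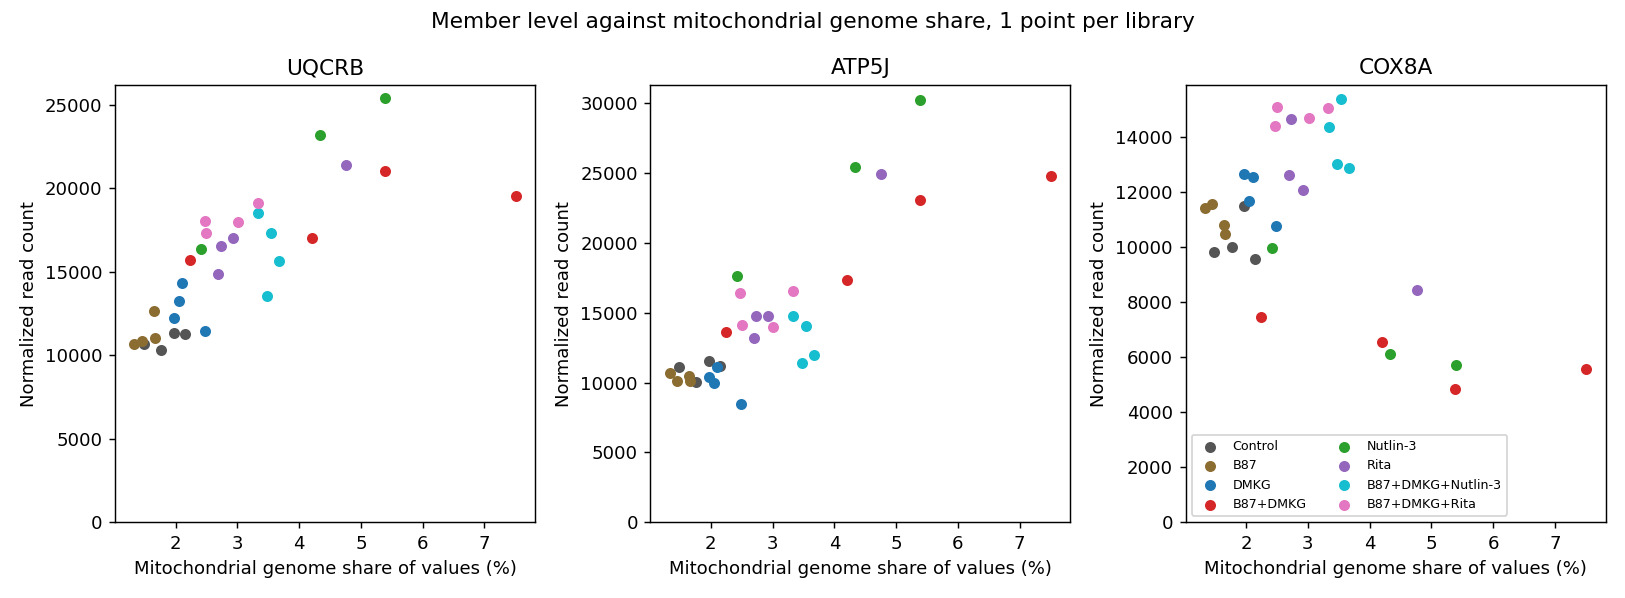
Normalized read count of UQCRB, ATP5J and COX8A (vertical axes, from 0) against the share of all values taken by the mitochondrial genome (horizontal axis, percent), 1 point per library, coloured by group. The highest ATP5J values, 25449 and 30242, belong to Nutlin-3 libraries at 4.33% and 5.39%, and the lowest COX8A value, 4828, to a B87+DMKG library at 5.39%.

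B87 alone left no member called: 0 of 46 by limma, 0 at an unadjusted p under 0.05, and 0 by edgeR and by DESeq2 on whole reads. The background was equally small, at 0.0431% of tested rows called by limma (0.0308% up and 0.0123% down), and 904 rows had an unadjusted p under 0.05. UQCRC1 stood at 14156, 12502, 13349 and 12268 in the B87 libraries, and COX8A at 11428, 10472, 11588 and 10811. Both overlapped Control.

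DMKG alone moved few members and by little. With DMKG 9 members rose and 2 fell, where 41.4% of tested rows were called (19.6% up and 21.8% down); 23.9% of members were called. COX15 stood at 2355, 2360, 2424 and 2355 in Control and at 2073, 2002, 1818 and 1851 in DMKG, without overlap, and fell by 0.30 ± 0.07 (log2, SE; limma adjusted p = 0.000925). COX20, a chaperone of the second mitochondrially encoded subunit, fell by 0.38, and lost the call without DMKG libraries 3 and 4 (-0.23). UQCRC2 rose by 0.26, COX7C by 0.27, COX10 by 0.25 and COX6C by 0.30; without DMKG libraries 1 and 2 UQCRC2 (0.17) and COX6C (0.18) did not pass. UQCRC1 rose by 0.29 with an adjusted p of 0.0408 by limma. COX10 lost the call without Control replicate 3 (0.20), COX6C without Control replicate 1 or 4 or DMKG replicate 1 or 2 (0.24 to 0.31), and UQCRC1 without any of Control replicates 1, 3 and 4 or DMKG replicates 1 to 3 (0.26 to 0.29). Scaled to the same total in every library, the split was 0 up and 3 down, with quantile normalization 2 up and 2 down, and without DMKG libraries 1 and 2 it was 1 up and 3 down. Without Control replicate 1, or without DMKG replicate 1, 6 members were called.

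The combination differed from the sum of its parts. A contrast of B87+DMKG against the added effects of B87 and DMKG called 27 members, 22 below and 5 above the sum, where 48.8% of tested rows were called (24.6% above and 24.1% below). COX8A differed from the sum by -1.10 ± 0.20 (log2, SE; limma adjusted p = 3.46e-05): its B87 and DMKG libraries each overlapped Control, and all 4 B87+DMKG libraries lay below it. COX5A (-1.04), UQCRC1 (-0.87), COX4I1 (-0.87), UQCRC2 (-0.82) and ATP5A1 (-0.82) also lay below it. ATP5J (1.03), the ATP5J2 row (0.97), UQCR10 (0.49), UQCRB (0.46) and COX20 (0.45) lay above it. The calls of UQCRB (0.31), UQCR10 (0.41) and COX20 (0.20) were lost without B87+DMKG libraries 1 and 2; UQCRB was also lost without B87+DMKG replicate 1 (0.39), COX20 without B87+DMKG replicate 2 (0.36), and all 3 without DMKG libraries 3 and 4.

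With Nutlin-3 alone the members moved both ways: ATP5J and UQCRB rose, COX8A fell, and so did 3 of 6 assembly genes. Of 46 members 16 rose and 9 fell, where 39.1% of tested rows were called (18.5% up and 20.7% down). ATP5J rose by 1.12 ± 0.18 (log2, SE; limma adjusted p = 9.64e-06), and its 3 Nutlin-3 libraries, given above, all exceeded Control. The ATP5J2 row rose by 1.10, UQCRB by 0.97 (16355, 23168 and 25431 against 10333 to 11348 in Control) and UQCR10 by 0.89. COX7A2L, a factor that joins complexes III and IV into supercomplexes, rose by 0.52. Complex IV subunits counted 5 up and 2 down of 10. Without Nutlin-3 libraries 2 and 3 the rises of ATP5J (0.68), the ATP5J2 row (0.72) and UQCRB (0.59) were smaller and still passed.

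ATP5S fell by 0.62 with Nutlin-3, COX8A by 0.53, COX18 by 0.48, COX11 by 0.35 and COX15 by 0.32. For COX8A the first Nutlin-3 library, at 9984, lay within the Control range and the other two far below it; the call was lost without Nutlin-3 replicate 2 (-0.43) or replicate 3 (-0.38). COX18 lost the call without Control replicate 3 (-0.44) and without each Nutlin-3 library (-0.47, -0.48 and -0.49). ATP5EP2 rose by 1.76, a call lost without either Nutlin-3 replicate 1 (1.88) or 3 (1.41) and without each Control library (1.73 to 1.82). With Nutlin-3 libraries 2 and 3 left out, which leaves 1 library assumed to vary like the other groups, 9 members rose and 1 fell; COX8A (-0.03), COX7A2L (0.25), ATP5S (-0.44) and COX15 (-0.30) then did not pass. With the same total in every library the split was 15 up and 15 down.

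Rita alone raised members of all 3 complexes and lowered COX10 and COX15 of heme A synthesis. Of 46 members 22 rose and 3 fell, where 52.1% of tested rows were called (25.8% up and 26.3% down), with a median of 0.24 against 0.03 over all rows. UQCRB rose by 0.67 ± 0.12 (log2, SE; limma adjusted p = 1.54e-05), with libraries at 14880, 16557, 17049 and 21412. COX6A1, which stood at 20359, 23452, 20033 and 19386 in Control, was at 29740, 35698, 32432 and 29333 with Rita and rose by 0.61. COX5B and ATP5J each rose by 0.58, ATP5J by 0.38 without Rita replicate 4 (limma adjusted p = 0.0413), and the row of ATP5SL by 0.54.

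COX10, the farnesyltransferase that begins heme A synthesis (hg19 chr17:13972719-14111992), stood at 1399, 1439, 1251 and 1406 in Control and at 840, 817, 825 and 888 with Rita. The groups were well separated, and COX10 fell by 0.70 ± 0.09 (log2, SE; limma adjusted p = 4.28e-08). COX15, the next enzyme of that pathway, fell by 0.23 and ATP5S by 0.51. Complex III counted 7 up of 10, complex IV subunits 6 up of 10 and complex V 8 up of 16 with Rita, with no fall among them; with the same total in every library the split over all members was 11 up and 6 down.

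With B87+DMKG+Nutlin-3 most members stood above Control. Here 27 members rose and 3 fell, where 58.0% of tested rows were called (28.3% up and 29.7% down); the members' median was 0.29 and that of all rows 0.02. Complex III had 9 of 10 up, complex IV subunits 6 of 10 and complex V 8 of 16 up with 2 down. COX5B stood at 27578, 20820, 28794 and 23092, all above the Control libraries, and rose by 0.89 ± 0.12 (log2, SE; limma adjusted p = 3.73e-07). ATP5D, the δ subunit of the F1 head, rose by 0.69, COX6A1 by 0.68, COX10 by 0.61 and UQCR10 by 0.60. ATP5B rose by 0.19, a call lost without Control replicate 1 (0.16) or B87+DMKG+Nutlin-3 replicate 3 (0.16); with quantile normalization it was at -0.10.

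The 3 members that fell with B87+DMKG+Nutlin-3 were COX18, ATP5A1 and ATP5F1. COX18 stood at 69.6, 81.3, 67.4 and 98.5 against 215 to 251 in Control and fell by 1.54 ± 0.16 (log2, SE; limma adjusted p = 9.79e-10). ATP5A1, at 21888, 19688, 21605 and 18877, fell by 0.57, and ATP5F1, a subunit of the peripheral stalk, fell by 0.49 from 13363 to 15028 in Control to 9623 to 10855. Both lay below all Control libraries, as they already did in B87+DMKG without Nutlin-3 (ATP5A1 at 18267 to 20994, ATP5F1 at 10549 to 12837). ATP5B, the other main subunit of the F1 head, was at 125774 to 142733 with B87+DMKG+Nutlin-3 and above all Control libraries. With the same total in every library 15 members rose and 5 fell.

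With B87+DMKG+Rita all complex III genes tested were called up. Over the members 32 rose and 2 fell, where 60.1% of tested rows were called (29.4% up and 30.7% down), and the members' median was 0.38 against 0.01. Complex III counted 10 up of 10, with log2 fold changes from 0.27 to 0.73, complex IV subunits 8 up of 10 and complex V 11 up of 16. In complex III the call was lost for UQCRFS1 in 2 of 19 alternatives and for UQCRC1 in 1. UQCRB, UQCR10 and CYC1 kept it in all 19. COX5B rose by 0.90 ± 0.12 (log2, SE; limma adjusted p = 3.31e-07), COX6A1 by 0.82, UQCRB by 0.73 and CYC1 by 0.64. CYC1 stood at 18678, 18869, 18469 and 18909 against 11340 to 13119 in Control. The members' summed share was 1.19% ± 0.009 (SD, n = 4).

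The assembly genes stood apart from the subunits with B87+DMKG+Rita, with 2 down and none up of 6. COX10, at 827, 886, 937 and 760, fell by 0.69 and COX15 by 0.26. Of the 7 treatments, limma called CYCS against Control in B87+DMKG+Rita alone: it stood at 26320, 27491, 27511 and 27985, above all Control libraries, and rose by 0.33 ± 0.13 (log2, SE; limma adjusted p = 0.0233), a call lost without Control replicate 1 (0.32) or 2 (0.31) and with the same total (0.08) or quantile normalization (0.05). Whether CYCS differed between the treated groups was tested for B87+DMKG+Rita against B87+DMKG, where it was higher by 0.51 (0.26 and not called with the same total, and 0.78 without B87+DMKG libraries 1 and 2), and against B87+DMKG+Nutlin-3, where the difference of 0.30 did not pass. With the same total in every library the split was 11 up and 5 down and with quantile normalization 18 up and 2 down. The log2 median of all rows then moved from 0.01 to -0.25 with the same total, and the members' median minus it from 0.369 to 0.366. The row of ATP5O, the stalk subunit that confers oligomycin sensitivity, rose by 0.20 but stood at -0.06 with the same total and at -0.02 with quantile normalization.

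**Figure D4:**
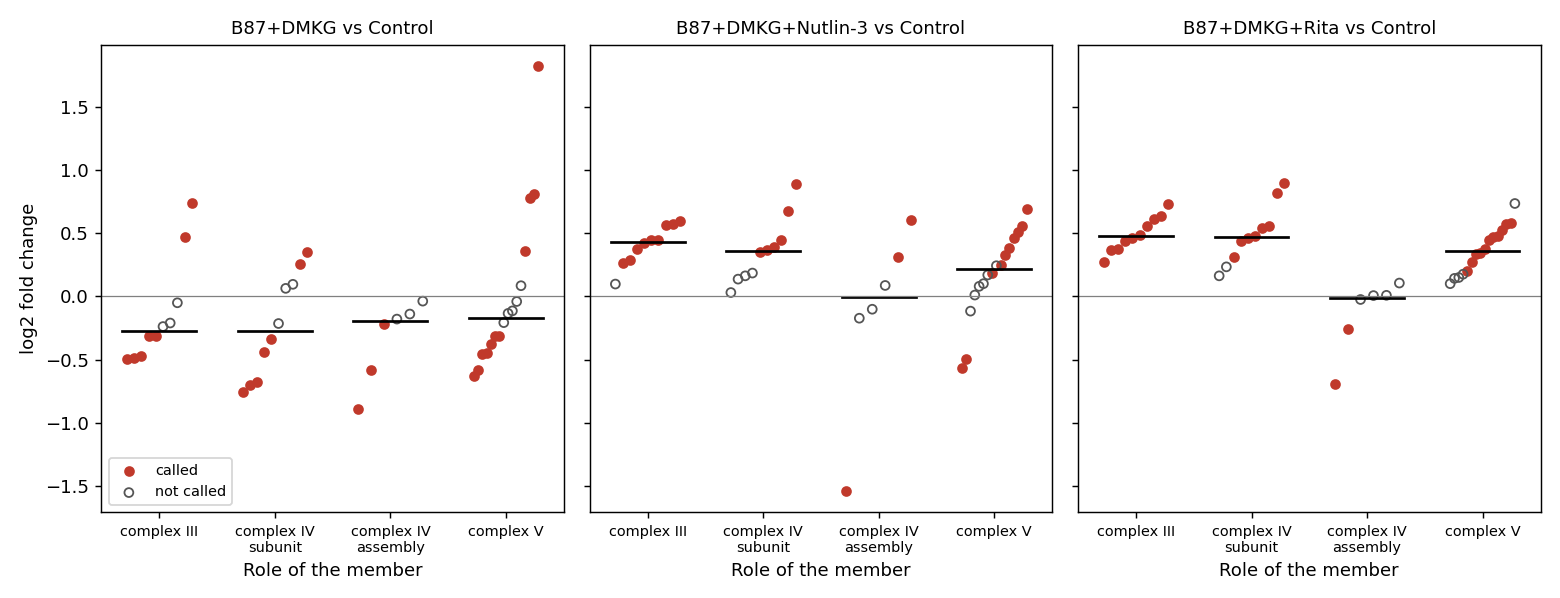
Log2 fold change (vertical axis) of members by role (horizontal axis) in 3 comparisons against Control; filled points passed the limma test, open points did not, and the line is the median of the role. Complex III had 5 members down and 2 up with B87+DMKG, and 10 of 10 up with B87+DMKG+Rita, while complex IV assembly genes had 2 down and none up there.

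Adding Nutlin-3 or Rita to B87+DMKG was tested directly against B87+DMKG; both comparisons share the B87+DMKG libraries, and these are also the libraries compared with Control above. With Nutlin-3 added 32 members were higher and 3 lower, where 58.9% of tested rows were called (26.5% up and 32.3% down). With Rita added 36 were higher and 1 lower, where 67.3% were called (33.1% up and 34.2% down). The medians over the members were 0.49 and 0.58, and over all rows -0.05 and 0.00.

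COX8A showed the largest gain of any member in both. It stood at 14366, 13043, 15376 and 12874 with B87+DMKG+Nutlin-3 and at 14714, 14410, 15088 and 15078 with B87+DMKG+Rita, above every B87+DMKG and every Control library. The differences from B87+DMKG were 1.20 ± 0.14 and 1.30 ± 0.14 (log2, SE; limma adjusted p = 1.91e-08 and 2.18e-09). COX4I1 was higher by 0.86 with Nutlin-3 added and by 1.14 with Rita added, CYC1 by 0.89 and 1.11, UQCRC1 by 0.93 and 0.97, and COX5A by 0.87 and 1.01. COX6B1 was called with Rita added, at 0.22 with an adjusted p of 0.0441 by limma, but stood at -0.02 with the same total in every library and lost the call without any of B87+DMKG replicates 1, 3 and 4 or any B87+DMKG+Rita library (0.17 to 0.24). With the same total 30 members were higher and 5 lower with Rita added.

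The 3 members that went down when Nutlin-3 was added to B87+DMKG were COX18, with a log2 difference of -0.65 (-0.25 and not called with quantile normalization, and -0.98 without B87+DMKG libraries 1 and 2), ATP5J with -0.56 and ATP5EP2 with -1.94. With Nutlin-3 added ATP5J stood at 14799, 11417, 14048 and 11955; the library at 11417 lay within the Control range and the others above it, and those at 14799 and 14048 lay within the B87+DMKG range. Without B87+DMKG libraries 1 and 2 its difference was -0.25 and did not pass, and that of ATP5EP2 was -1.63 and did not pass. COX10 fell by 0.55 when Rita was added. UQCRB, raised in B87+DMKG, stood at 13557 to 18504 with Nutlin-3 added and at 17306 to 19142 with Rita added, and its difference from B87+DMKG passed the test in neither.

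Between the 2 triple treatments few members were called, and COX10 and COX18 were far apart. B87+DMKG+Rita against B87+DMKG+Nutlin-3, a comparison added after the data were seen, called 7 members, 5 higher and 2 lower, where 48.3% of tested rows were called (24.5% higher and 23.8% lower); 15.2% of members were called. No complex III gene and no complex IV subunit passed, with differences from -0.14 to 0.21 and from 0.00 to 0.27. COX10 stood at 1831, 2309, 2031 and 2219 with Nutlin-3 and at 827, 886, 937 and 760 with Rita, and the difference was -1.30 ± 0.09 (log2, SE; limma adjusted p = 4.34e-14). COX15 differed by -0.35.

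COX18 was higher with Rita by 1.52 ± 0.16 (log2, SE; limma adjusted p = 1.4e-09), at 250, 200, 224 and 232, within the Control range or close to it. ATP5A1, at 33157, 33140, 34047 and 33783 with Rita, was higher by 0.71, and ATP5F1 by 0.67. ATP5B was higher by 0.19, a call lost without B87+DMKG+Nutlin-3 replicate 4 (0.16) or B87+DMKG+Rita replicate 1 (0.18). The ATP5O row was higher by 0.19, a call lost without replicate 2 (0.16) or 4 (0.16) of B87+DMKG+Nutlin-3 and without replicate 3 (0.17) or 4 (0.18) of B87+DMKG+Rita. With these 2 groups fitted alone, 12 members were higher and 3 lower; with the same total in every library 3 were higher and 3 lower, and with quantile normalization 3 and 2.

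Fold changes of the members were set beside transcript length and the promoter word. Over 45 members with a length, which share libraries and depth, Spearman's rho of the log2 fold change with transcript length was -0.51 in Nutlin-3, -0.50 in Rita, -0.45 in B87+DMKG, -0.44 in B87+DMKG+Nutlin-3, -0.51 in B87+DMKG+Rita, -0.09 in DMKG and 0.01 in B87, each against the same Control libraries. It was 0.01 for B87+DMKG+Nutlin-3 against B87+DMKG and 0.16 for B87+DMKG+Rita against B87+DMKG. The 14 members with the ETS core had a median of -0.08 with B87+DMKG, from COX8A at -0.76 to ATP5J at 0.81, and the 21 without it a median of -0.31, from -0.89 to 0.47, so the ranges overlapped. The medians with and without the word were 0.21 and 0.04 with Nutlin-3, and 0.38 and 0.22 with Rita. They were 0.44 and 0.16 with B87+DMKG+Nutlin-3, and 0.48 and 0.27 with B87+DMKG+Rita. With Nutlin-3 added to B87+DMKG they were 0.56 and 0.29, and beyond the sum -0.19 and -0.46. They were closer with B87 (0.04 and 0.04) and DMKG (0.13 and 0.10). The same held with Rita added to B87+DMKG (0.56 and 0.55) and between the triple treatments (0.10 and 0.11). The ranges overlapped in all these comparisons, and the difference was not tested. All 5 genes whose promoters are printed above hold the word.

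The other genes of the pathway were counted from lists, to be read against the 61.0% of all tested rows called with B87+DMKG, 58.0% with B87+DMKG+Nutlin-3 and 60.1% with B87+DMKG+Rita. Of 23 complex IV assembly genes and partners outside the rule, 2 rose and 12 fell with B87+DMKG, 8 rose and 4 fell with B87+DMKG+Nutlin-3, and 10 rose and 5 fell with B87+DMKG+Rita. FASTKD3, a factor for mitochondrial transcripts, fell by 1.77 with B87+DMKG, and SURF1, an early assembly factor, rose by 0.57 with B87+DMKG+Rita. FASTKD3 stood at 442 to 616 in Control. It was lower in all libraries with DMKG (192 to 324), Nutlin-3 (200 to 221) and Rita (224 to 410) alone. With B87 alone (481 to 676) it overlapped Control. Of 7 complex III assembly genes 1 rose and 2 fell with B87+DMKG, and 4 rose and 1 fell with B87+DMKG+Rita, where BCS1L, which inserts the Rieske protein, rose by 0.38. Of 7 complex V assembly genes and partners 1 rose and 3 fell with B87+DMKG, and 3 rose and 2 fell with B87+DMKG+Rita.

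TMEM70, which helps to build the c ring of complex V, stood at 1985, 2297, 2598 and 2401 in Control and at 699, 648, 729 and 624 in B87+DMKG. The groups were far apart, and TMEM70 fell by 1.78 ± 0.11 (log2, SE; limma adjusted p = 3.05e-14), further than any member fell in that comparison. It fell by 1.43 with B87+DMKG+Nutlin-3 and by 0.46 with B87+DMKG+Rita. TMEM70 was also below all Control libraries with DMKG (1249 to 1602), Nutlin-3 (934 to 1413) and Rita (1499 to 1971) alone. With B87 alone (2300 to 2714) it overlapped Control. ATPAF2, a chaperone of the α subunit, rose by 0.74 with B87+DMKG+Rita and by 0.67 with B87+DMKG+Nutlin-3. COX17, COX16 and COX19 stood in rows shared with other genes and were not members: the COX17 // POPDC2 row rose by 0.33 and 0.27 in the same pair of comparisons.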

How the data were processed

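Gene-level signal was deposited by the authors as 1 table of normalized values for 31 poly(A) RNA libraries with hg19 positions, per the file headers; the submitters' processing notes name FastQC, Picard, SAMtools, STAR 2.4.0 and DESeq2, and also mm10, which the table does not use. All 690132 values above 0 lay within 0.1 step of whole reads. Values were tested as log2(value + 1) with limma 3.58.1 in R 4.3.3 over rows with a mean of at least 10, in 1 fit by group over 31 libraries (23 residual degrees of freedom), Benjamini-Hochberg adjusted over 16259 rows and called under 0.05. Replicate numbers were not a block: same-numbered libraries deviated with a median r of -0.003 over 105 pairs. The fit was tested on simulated data. Alternatives used pseudocounts of 0.5 and 5, a mean of 50 or no minimum, other scalings, whole reads in edgeR (4.0.16) or DESeq2 (1.42.0), and libraries left out. Read counts cover counting error only. Members and lists were chosen with earlier results of these data known. Named are a fixed set of subunits and, per comparison, up to 5 called members with the largest change each way; of the pathway lists, a selection of the 3 largest called changes, followed in the other comparisons. Values of UQCRC2, COX20, ATP5L, UQCRH, UQCRB, UQCRQ and ATP5F1 outside these were chosen after their values were seen. Transcript length is the median over GENCODE basic coding transcripts.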

Additional observations from a re-analysis of the deposited data

Results flagged for a closer look

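Among 133 groups of 4 libraries checked, 5 held a library apart from its group, and chance marks about 1 group in 20 (Dixon's ratio). COX5A stood at 8314 in Control replicate 1 against 9907 to 10188 in the other Control libraries. COX5B stood at 13510 in DMKG replicate 4 against 16200 to 16473. ATP5J stood at 24916 in Rita replicate 4 against 13206 to 14805, and the same library had a mitochondrial genome share of 4.76% against 2.69% to 2.93%. ATP5EP2, the ATP5E pseudogene, stood at 156 in B87 replicate 4 against 8.13 to 11.3.

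For 10 named members the effect of B87+DMKG differed from the sum of the B87 and DMKG effects by limma's contrast. The log2 difference was -1.24 for ATP5S, -1.10 for COX8A, -1.04 for COX5A, -0.87 for UQCRC1 and -0.87 for COX4I1. It was 0.45 for COX20, 0.46 for UQCRB, 0.49 for UQCR10, 0.97 for the ATP5J2 row and 1.03 for ATP5J.

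The row shared by COX6B2, a testis isoform, and FAM71E2 was too low to be tested. Its median was 5.5 whole reads with B87+DMKG, 4 with B87+DMKG+Nutlin-3 and 6 with B87+DMKG+Rita, where no Control library had more than 2.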

How the results depend on the processing

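With the same total in every library 3 members were called with DMKG and 16 with B87+DMKG+Rita against Control, and with quantile normalization 4 and 20, against 11 and 34 as reported. Without DMKG libraries 1 and 2 the DMKG count was 4, without Nutlin-3 libraries 2 and 3 the Nutlin-3 count was 10, and with only the groups compared the count between the triple treatments was 15; the cause was not tested. Leaving out 1 library at a time gave 0 to 0 members with B87, 6 to 14 with DMKG, 28 to 33 with B87+DMKG, 18 to 28 with Nutlin-3, 20 to 28 with Rita, 25 to 31 with B87+DMKG+Nutlin-3 and 32 to 36 with B87+DMKG+Rita against Control. Against B87+DMKG the ranges were 34 to 36 with Nutlin-3 added and 35 to 37 with Rita added, beyond the sum 26 to 31, and between the triple treatments 5 to 10. Of single-gene values under all alternatives, 3687 kept direction and side of the threshold, 240 lost the call and 4 reversed: ATP5B with B87+DMKG+Nutlin-3 (-0.10, quantile), the ATP5O // CRYZL1 // DONSON row with B87+DMKG+Rita (-0.058, same total, and -0.020, quantile) and COX6B1 with Rita added to B87+DMKG (-0.020, same total). With the replicate number as a block, 10 members were called with DMKG and every other count was within 1.5 times the reported one; same-numbered libraries did not deviate together, and 8 of 31 correlated best with their own number. Depth limits the 8 low members and COX18, ATP5S and ATP5EP2 most.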

Other observations

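Regulators of mitochondrial gene expression were counted from a list, and the genes named are among its larger changes. Of 13 biogenesis genes 4 rose and 9 fell with B87+DMKG (limma), where 61.0% of all tested rows were called (30.2% up and 30.8% down). TFAM, which packages and transcribes the mitochondrial genome, stood at 7780, 7040, 8488 and 8834 in Control and at 2740, 2671, 2359 and 2030 in B87+DMKG, and fell by 1.72 on the log2 scale. It fell by 1.28 with B87+DMKG+Nutlin-3, and with B87+DMKG+Rita the difference of -0.18 did not pass. TFAM was also below all Control libraries with DMKG alone (4447 to 5911) and Nutlin-3 alone (4503 to 4702). It overlapped Control with B87 alone (7575 to 8665) and Rita alone (6739 to 8725). TFB2M, a mitochondrial transcription factor, fell by 1.90 with B87+DMKG, by 2.87 with B87+DMKG+Nutlin-3 and by 1.00 with B87+DMKG+Rita. TFB2M stood at 2547 to 2696 in Control. It was lower in all libraries with DMKG (1035 to 1558), Nutlin-3 (1487 to 1761) and Rita (1818 to 2170) alone. With B87 alone (2478 to 3480) it overlapped Control. NRF1, an activator of nuclear respiratory genes, stood at 1105 to 1320 in Control, 446 to 500 with Rita and 304 to 335 with B87+DMKG+Rita, and fell by 1.31 and 1.88. PPARGC1A, a coactivator of this program, fell by 1.87 with Rita and rose by 1.08 with B87+DMKG.

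Complex II, which has no mitochondrially encoded subunit, had 1 of 8 genes up and 5 down with B87+DMKG, against the same 61.0% of all tested rows. SDHD, a membrane anchor, fell by 0.77, and stood at -0.01 with B87+DMKG+Nutlin-3 and 0.03 with B87+DMKG+Rita against Control, neither called. SDHAF4, an assembly factor of the complex, rose by 0.54 with B87+DMKG, by 1.66 with Rita and by 1.54 with B87+DMKG+Rita. Its libraries stood at 536, 457, 455 and 341 with DMKG alone. They stood at 319 to 381 with B87+DMKG and at 224 to 261 in Control. Of 9 apoptosome genes none rose and 3 fell with B87+DMKG, 4 rose and 4 fell with B87+DMKG+Nutlin-3, and 2 rose and 3 fell with B87+DMKG+Rita; over all tested rows 61.0%, 58.0% and 60.1% were called in these comparisons. APAF1, the scaffold that cytochrome c activates, had log2 fold changes of -1.24, -1.77 and -2.08 in these 3 groups. Its libraries stood at 224 to 282 with Rita alone and at 192 to 241 with B87+DMKG+Rita, against 737 to 1013 in Control. XIAP, an inhibitor of caspases, fell by 1.44 with B87+DMKG+Nutlin-3 and by 0.97 with B87+DMKG+Rita.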
